A study of Mus musculus with 4 samples.

Results

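The 8 genes described here are transcripts of regulatory T cells, out of 23234 gene symbols measured. Foxp3, Lrrc32, Gpr83, Nrp1, Capg, Ebi3 and Il10 were taken as a list of known regulatory T cell genes. This list was chosen with earlier results of these data known. Penk, which is enriched in these cells, was added and chosen by its large FPKM difference between the groups, so its values are given as a description with no test. RNA was sequenced from spleen helper T cells (CD4 T cells in the series title) of C57BL/6 mice aged 43 weeks, with 2 libraries labelled wild type (WT 1, WT 2) and 2 labelled RIPK1-KO (KO 1, KO 2). The series design calls the knockout T-cell-specific. The transgene that drives it, the part of Ripk1 removed and any treatment behind the word Ctrl, which ends all 4 titles, are unstated in the sources used here. Separate mice are not named for the 2 libraries of either group, so p-values reflect a spread that may be purely technical. RIPK1 is a kinase and scaffold that acts below TNF receptors in survival and death signalling.

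Regulatory T cells are helper T cells that restrain other immune cells, and the transcription factor FOXP3 sets their identity. They act through surface proteins that release or receive inhibitory signals, such as GARP (from Lrrc32), which holds latent TGF-beta on the cell, and through secreted factors such as IL-10. Ebi3 encodes a subunit that pairs with other chains to form cytokines of the IL-12 family. Penk encodes proenkephalin, a precursor that proteases cut into the opioid peptides called enkephalins.

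Each library was deposited as FPKM, the fragments of a gene per unit of transcript length and of library total. The depth read from steps in the low values was about 21500000 fragments in WT 1, 22100000 in WT 2, 17600000 in KO 1 and 19100000 in KO 2. Ripk1 itself was not lower in the KO-labelled libraries, at 5.61 and 5.60 FPKM in wild-type libraries against 10.4 and 9.54 FPKM in KO 1 and KO 2. Ripk1 was called higher as deposited (log2 change 0.73, limma adjusted p = 0.0262), with no allowance for the rise of the median gene. KO here therefore means only the libraries so labelled. All 9 T cell identity genes were present, and 3 of them (Cd3e, Cd4 and Cd5) were called higher, with Cd3g at 262 to 362 FPKM, Cd2 at 146 to 260 FPKM and Thy1 at 162 to 281 FPKM. Of 11074 tested genes, 25.6% were called higher in the KO-labelled libraries at an adjusted p of 0.05 (limma), and the median gene was higher by 0.38 on the log2 scale. Scaling by the trimmed mean of M values (TMM) moved that median to 0.01 and left 4.52% called higher; quantile scaling moved it to -0.02 and left 1.62%. Changes of the listed genes are therefore also given relative to the median gene. Lrrc32 lay 1.12, Nrp1 0.95, Capg 1.41, Ebi3 0.97 and Il10 0.99 above it, and the values for Foxp3 and Gpr83 are given with those genes. Changes of other genes, among them Ripk1, Cd4 and Cd3e, include the rise of the median gene unless a scaling is named.

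The sequences around the start sites of Foxp3 and Gpr83 are shown because these 2 genes stand at the ends of the 7 listed genes, with the highest and the lowest log2 change. RefSeq windows on GRCm38.p6, from 250 bases before to 50 bases after each start, were found for 5 of the 8 genes (Capg, Ebi3, Foxp3, Gpr83, Nrp1), in 6 windows. All are on the plus strand and are written 5′ to 3′. Capitals mark matches to any of 7 motifs searched on both strands.
Foxp3, upstream start, chrX:7579426-7579725: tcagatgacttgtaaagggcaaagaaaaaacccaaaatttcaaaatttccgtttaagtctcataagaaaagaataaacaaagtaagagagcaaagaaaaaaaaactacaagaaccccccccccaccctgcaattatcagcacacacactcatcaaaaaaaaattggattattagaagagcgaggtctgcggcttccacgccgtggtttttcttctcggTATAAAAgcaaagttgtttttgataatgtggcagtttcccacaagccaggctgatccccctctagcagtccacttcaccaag
Foxp3, downstream start, chrX:7580233-7580532: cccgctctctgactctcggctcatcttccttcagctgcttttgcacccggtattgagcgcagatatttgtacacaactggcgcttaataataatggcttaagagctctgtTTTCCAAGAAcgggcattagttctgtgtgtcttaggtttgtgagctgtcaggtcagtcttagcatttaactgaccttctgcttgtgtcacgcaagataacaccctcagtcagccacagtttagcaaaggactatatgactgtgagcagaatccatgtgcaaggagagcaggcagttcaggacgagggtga
Gpr83, chr9:14859960-14860259: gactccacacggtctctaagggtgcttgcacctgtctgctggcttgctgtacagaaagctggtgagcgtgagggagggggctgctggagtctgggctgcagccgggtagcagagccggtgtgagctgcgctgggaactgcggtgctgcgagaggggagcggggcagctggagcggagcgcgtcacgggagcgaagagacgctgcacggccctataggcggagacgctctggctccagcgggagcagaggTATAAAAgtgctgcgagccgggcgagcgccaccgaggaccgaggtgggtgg
The motifs were the TATA box (TATAAAA), AP-1 (TGANTCA), the cAMP response element (TGACGTCA), NFAT (TGGAAA), forkhead (GTAAACA), RUNX (TGTGGT) and STAT (TTCNNNGAA). The upstream Foxp3 window held the TATA box letters beginning at position -32 relative to the start site, and the Gpr83 window held them beginning at position -1. The downstream Foxp3 window held an NFAT match on the opposite strand beginning at position -140, which overlaps a STAT match beginning at position -139. Of 32851 windows of this length, 5.48% held the TATA box, 21.4% the NFAT and 8.30% the STAT letters. The windows of Capg, Ebi3 and Nrp1 held none of the 7 motifs. These matches describe the letters only.

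All 7 listed genes had both KO values above both WT values, as did 58.5% of all tested genes. Penk had them too, but it was chosen for its difference and is left out of this comparison. Of the 7 listed genes, 6 rose (limma, adjusted over all tested genes), against 25.6% of tested genes called higher, and none was called lower. Their median log2 change was 1.37, against 0.38 over all tested genes. The list was chosen with earlier results of these data known, so its count is a description. Lrrc32 reached the filter on low values only through the KO libraries and so had to differ to be tested. Of the other 6 listed genes, 5 rose, with a median log2 change of 1.36. Among these, Ebi3 and Il10 each had 1 wild-type library at 1 FPKM or more, so they also needed a KO library to be tested. The count over all 7 was 4 under TMM scaling and 3 under quantile scaling, and 0 without WT 1, a setting that left 9 genes called higher in all. These libraries are bulk RNA, in which more cells of a type and more RNA per cell cannot be told apart.

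**Figure D1:**
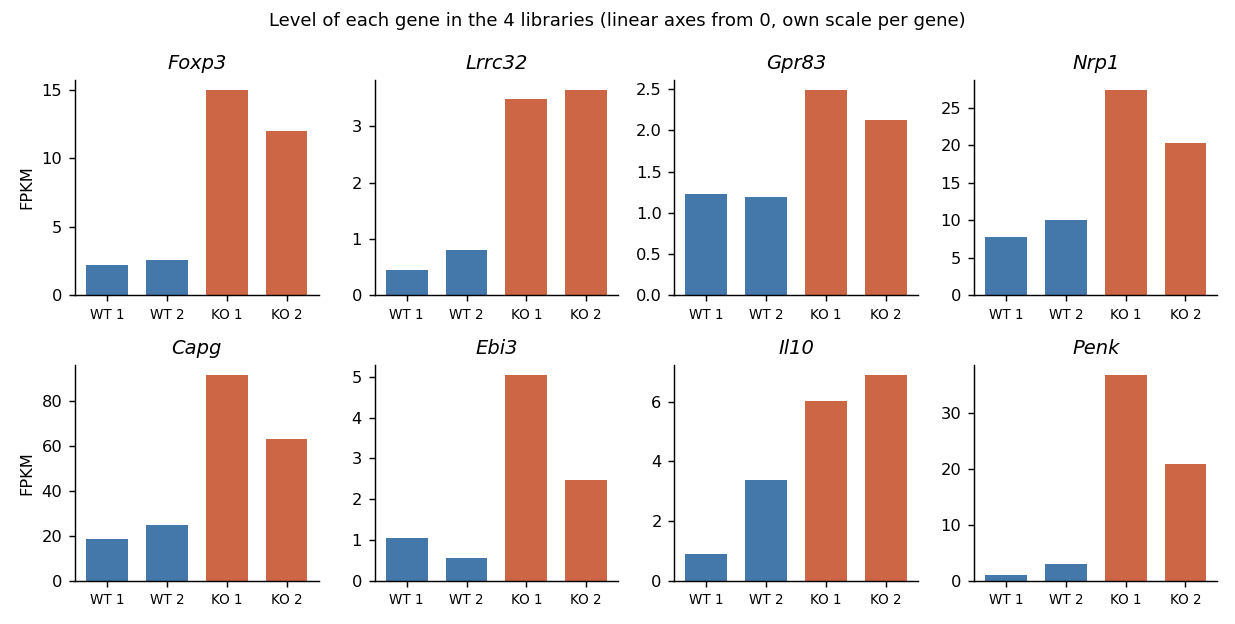
FPKM of each of the 8 genes (bars, linear axes from 0, an own scale for each gene) in the libraries WT 1 and WT 2 (blue) and KO 1 and KO 2 (orange). Both orange bars stand above both blue bars in every panel, from 2.13 and 2.49 against 1.19 and 1.23 FPKM for Gpr83 to 21.0 and 36.8 against 1.04 and 2.98 FPKM for Penk.

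Foxp3, the lineage factor, measured 2.26 FPKM in WT 1 and 2.56 FPKM in WT 2, against 15.0 and 12.0 FPKM in KO 1 and KO 2. The groups were far apart compared with their spread: the lower KO library was 4.69 times the higher WT library. The log2 change was 2.08 ± 0.19 (SE, n = 2 and 2; limma adjusted p = 0.0078). It lay 1.70 above the median gene and ranked 94 among the 11074 tested genes. Foxp3 passed under both scalings (adjusted p = 0.0174 under TMM scaling and 0.0388 under quantile scaling, limma). With a transcript of 3834 nt, the values corresponded to roughly 176 and 206 fragments in wild-type libraries against 958 and 834 in the KO-labelled libraries.

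Lrrc32, which encodes the TGF-beta docking receptor GARP, was at 0.451 and 0.799 FPKM in wild-type libraries, against 3.48 and 3.64 FPKM in the KO-labelled libraries. The KO libraries nearly coincided, and both WT libraries lay under 1 FPKM. It rose by 1.498 ± 0.20 on the log2 scale (SE, limma adjusted p = 0.0127), a fold of 5.70 on the mean FPKM. Lrrc32 reached the filter of 1 FPKM in 2 libraries only through the KO libraries, so its passing into the test already required a difference. Its wild-type values rest on about 42 and 77 fragments.

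Nrp1 encodes neuropilin-1, a semaphorin and VEGF receptor that marks many regulatory T cells of thymic origin. It measured 7.74 FPKM in WT 1 and 10.03 FPKM in WT 2, against 27.4 and 20.4 FPKM in KO 1 and KO 2. The lower KO library was 2.03 times the higher WT library. Nrp1 rose by 1.33 ± 0.23 on the log2 scale (SE, limma adjusted p = 0.0151). It passed under TMM scaling (adjusted p = 0.0432, limma) and missed the threshold under quantile scaling (adjusted p = 0.0592, limma).

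Gpr83, a G protein-coupled receptor found on regulatory T cells, was the only listed gene that did not pass. Its values were 1.23 and 1.19 FPKM in wild-type libraries against 2.49 and 2.13 FPKM in the KO-labelled libraries. The groups did not overlap, but the log2 change of 0.58 (95% interval 0.15 to 1.02; limma adjusted p = 0.0562) lay only 0.20 above the median gene. Under TMM scaling it was 0.30 (adjusted p = 0.291, limma). The interval reaches below the median gene, and Gpr83 ranked 3776 of 11074 by its log2 change.

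Capg encodes a gelsolin-like protein that caps actin filaments. It had the highest level per length of the 8 genes in every library, at 18.4 and 24.6 FPKM in wild-type libraries against 91.3 and 63.3 FPKM in the KO-labelled libraries. KO 1 and KO 2 differed 1.44-fold, less than the 2.57-fold between the lower KO and the higher WT library. Capg rose by 1.79 ± 0.27 on the log2 scale (SE, limma adjusted p = 0.0131) and passed under both scalings (adjusted p = 0.0263 and 0.0442, limma).

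Ebi3 and Il10 encode secreted proteins. Ebi3 measured 1.06 FPKM in WT 1 and 0.559 FPKM in WT 2, against 5.04 and 2.47 FPKM in KO 1 and KO 2, which are about 22, 12, 85 and 45 fragments. It differed 2.04-fold between the KO libraries, the widest KO gap of the 8 genes. Ebi3 rose by 1.35 ± 0.30 on the log2 scale (SE, limma adjusted p = 0.0233). The call ended under TMM scaling (adjusted p = 0.0707, limma), under quantile scaling (0.0915) and without WT 2 (0.0943).

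Il10, which encodes the inhibitory cytokine IL-10, measured 0.886 FPKM in WT 1 and 3.39 FPKM in WT 2, against 6.01 and 6.88 FPKM in KO 1 and KO 2. The wild-type libraries differed 3.83-fold, the widest gap within a group, whereas the KO libraries lay close together. Il10 rose by 1.37 ± 0.37 on the log2 scale (SE, limma adjusted p = 0.0383). The call ended under TMM scaling (adjusted p = 0.108, limma), under quantile scaling (0.158) and with a pseudocount of 0.1 (0.0581). Without WT 1 its log2 change was 0.76 and without WT 2 it was 1.98, so the size of the change rests on which wild-type library is used.

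Penk measured 1.04 FPKM in WT 1 and 2.98 FPKM in WT 2, against 36.8 and 21.0 FPKM in KO 1 and KO 2. Both KO libraries were at least 7.03 times the higher WT library, and KO 1 was 1.75 times KO 2. The ratio of the group means was 14.4 and the log2 difference 3.34, the value for which the gene was chosen; it ranked 24 among 11074 tested genes. The ratio of means was 9.68 without WT 1 and 27.8 without WT 2, so its size also rests on the wild-type library used. The wild-type values correspond to about 28 and 82 fragments and the KO values to about 809 and 501.

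**Figure D2:**
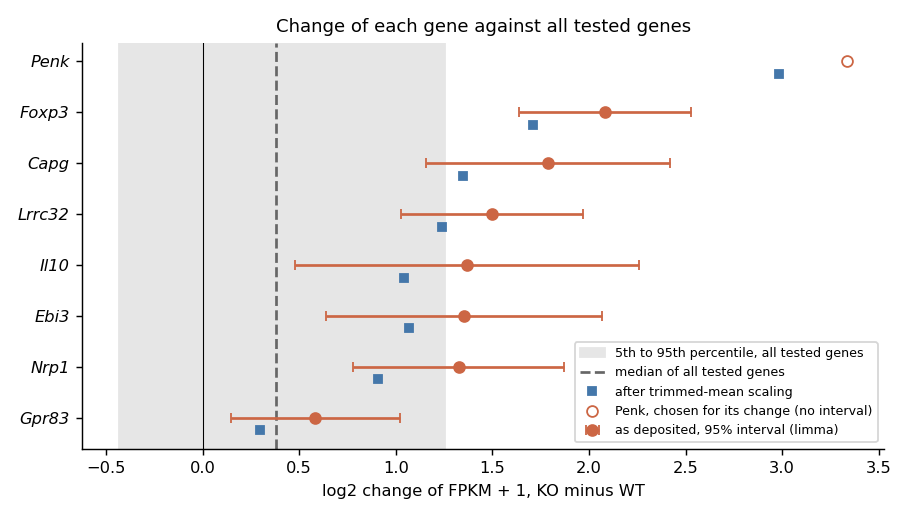
Log2 change of FPKM + 1 (x axis, KO minus WT) for each gene as deposited (circles with 95% limma intervals) and under TMM scaling (squares), over the span from the 5th to the 95th percentile of all tested genes (grey, -0.43 to 1.25) and their median (dashed, 0.38). The filled circles of 6 genes lie above that span, and Gpr83, at 0.58, lies inside it; Penk (open circle, 3.34) was chosen for its change and has no interval.

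The 8 genes did not keep 1 order over the libraries of a group. Of these, 6 were higher in KO 1 than in KO 2, with Lrrc32 and Il10 the exceptions, and 58.0% of tested genes were higher in KO 1. Likewise 6 were higher in WT 2 than in WT 1, with Gpr83 and Ebi3 the exceptions, as were 68.2% of tested genes. Ordered by wild-type mean per length, Capg (21.5 ± 4.44 FPKM) and Nrp1 (8.89 ± 1.62 FPKM; SD, n = 2) stood above the others. Foxp3 (2.41 ± 0.22 FPKM), Il10 (2.14 ± 1.77 FPKM), Penk (2.01 ± 1.37 FPKM) and Gpr83 (1.21 ± 0.03 FPKM) followed, with Il10 and Penk overlapping both of their neighbours. Ebi3 (0.809 ± 0.353 FPKM) and Lrrc32 (0.625 ± 0.246 FPKM) overlapped each other at the bottom. In the KO-labelled libraries, Penk (28.9 ± 11.2 FPKM) overlapped Nrp1 (23.9 ± 4.97 FPKM) and both lay below Capg (77.3 ± 19.9 FPKM). Foxp3 (13.5 ± 2.09 FPKM) and Il10 (6.45 ± 0.61 FPKM) followed without overlap, and Ebi3 (3.75 ± 1.81 FPKM) overlapped both Lrrc32 (3.56 ± 0.11 FPKM) and Gpr83 (2.31 ± 0.25 FPKM; SD, n = 2).

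Ratios within a library do not change when each library is divided by its own factor, as under TMM scaling. Quantile scaling can change them, and the ratios here are of values as deposited. Relative to Foxp3, Lrrc32 stood at 0.200 and 0.312 in wild-type libraries, against 0.233 and 0.303 in the KO-labelled libraries, so its groups overlapped. Ebi3 (0.469 and 0.218 against 0.336 and 0.206) and Il10 (0.393 and 1.32 against 0.401 and 0.573) overlapped as well. The ratio was lower in both KO libraries for Gpr83 (0.544 and 0.464 against 0.166 and 0.177), Nrp1 (3.43 and 3.92 against 1.83 and 1.69) and Capg (8.14 and 9.62 against 6.10 and 5.26). This is the common case, since 95.1% of tested genes had a lower ratio to Foxp3 in both KO libraries. The ratio of Penk to Foxp3 was 0.461 and 1.17 in wild-type libraries against 2.45 and 1.75 in the KO-labelled libraries, higher in both, as for 0.75% of tested genes; it contains the difference that chose Penk. On the log2 scale that ratio differed between the groups by 0.83 without WT 1 and by 2.17 without WT 2. The value of Foxp3 and its error enter all of these ratios.

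**Figure D3:**
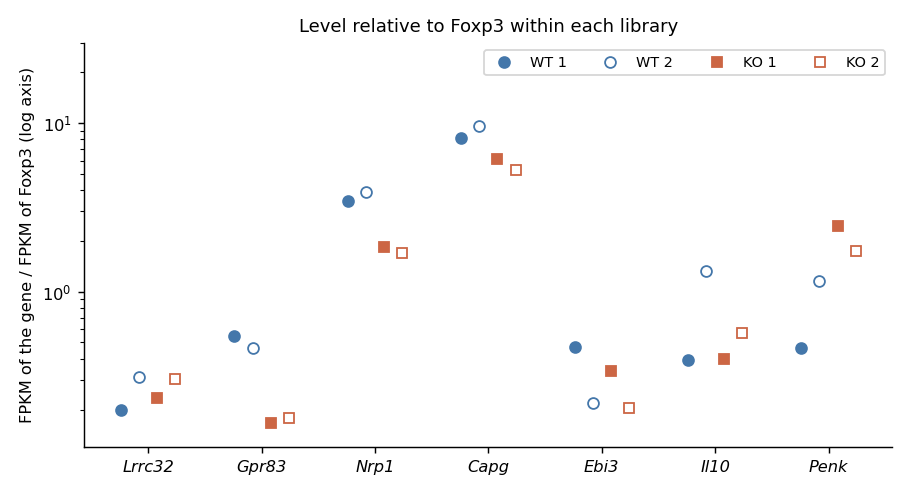
FPKM of 7 genes divided by the FPKM of Foxp3 in the same library (y axis, log scale) for WT 1 and WT 2 (circles) and KO 1 and KO 2 (squares). The squares lie below both circles for Gpr83, Nrp1 and Capg, between or beside them for Lrrc32, Ebi3 and Il10, and above them for Penk.

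Measured against Cd4, the coreceptor of helper T cells, 4 of the 7 listed genes had a higher ratio in both KO libraries (Foxp3, Lrrc32, Capg and Ebi3), against 6.53% of tested genes. Lrrc32 reached the filter only through the KO libraries, and Ebi3 also needed a KO library. Their higher ratios are thus partly set by the filter, whereas Foxp3 and Capg reached it in the wild-type libraries. The ratio of Foxp3 to Cd4 was 0.0262 and 0.0293 in wild-type libraries against 0.0711 and 0.0649 in the KO-labelled libraries. Gpr83 to Cd4 was lower in both KO libraries, at 0.0142 and 0.0136 against 0.0118 and 0.0115. Cd4 itself rose from 86.3 and 87.3 FPKM to 211 and 185 FPKM (limma adjusted p = 0.0173). Against Cd3e, a chain of the T cell receptor complex, the higher ones were Foxp3, Lrrc32, Nrp1, Capg and Ebi3, while 9.5% of tested genes were higher by this measure. The same limit holds here for Lrrc32 and Ebi3. Cd3e rose as well, from 61.3 and 76.9 FPKM to 151 and 129 FPKM (limma adjusted p = 0.0262). Gpr83 to Cd3e gave 0.0200 and 0.0154 in wild-type libraries against 0.0165 and 0.0166 in the KO-labelled libraries, which overlap.

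The profiles most like that of Foxp3 over the 4 libraries, by the root mean square distance of centred log2(FPKM + 1) values, were those of Arnt2 (0.08), Acot7 (0.08), Tiam1 (0.09), Ptpn13 (0.09) and Mtap6 (0.10). Their FPKM ran from 0.185 and 0.460 against 5.63 and 4.05 for Arnt2 to 5.12 and 6.59 against 32.5 and 23.9 for Acot7. The profiles nearest to Penk were more distant, namely Top2a (0.31), Anxa2 (0.35), Mki67 (0.40), Il21 (0.44) and Spp1 (0.45). With 4 libraries in 2 groups, a small distance mostly reflects a group difference of like size.

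Other genes of regulatory T cells were read from lists chosen with earlier results known, so their counts are descriptions. They stand beside the 25.6% of all tested genes called higher as deposited, 4.52% under TMM scaling and 1.62% under quantile scaling, and nothing particular to a list is read from them. Itgae, Entpd1, Prdm1, Ahr, Itgb8, Plxnd1 and Cpe, like Lrrc32, reached the filter only through KO 1 and KO 2. Such genes had to differ to be tested. Of 14 surface receptors, 13 rose as deposited, 7 under TMM scaling and 5 under quantile scaling, with a median log2 change of 1.79. Without Itgae and Entpd1, 11 rose as deposited. Itgae, the integrin chain CD103, was at 0.812 and 0.559 FPKM in wild-type libraries against 12.3 and 7.74 FPKM in the KO-labelled libraries. Tnfrsf4, the costimulatory receptor OX40, rose 5.34-fold, Nt5e, the adenosine-producing CD73, 4.70-fold, and Il2rb, a chain of the IL-2 receptor, 4.23-fold (limma adjusted p = 0.0115, 0.0123 and 0.0127). The exception was Il2ra, the IL-2 receptor chain CD25 that is abundant on most regulatory T cells. Il2ra was at 35.6 and 29.4 FPKM in wild-type libraries against 27.6 and 27.2 FPKM in the KO-labelled libraries. Its log2 change was -0.23 as deposited (limma adjusted p = 0.41). It was -0.67 under TMM scaling and -0.57 under quantile scaling (limma adjusted p = 0.0721 and 0.128). Il2ra was singled out after its values were seen.

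Of 18 transcription factors that act with or beside FOXP3, 11 rose as deposited, 4 under TMM scaling and 2 under quantile scaling, with a median log2 change of 1.07. Prdm1 reached the filter only through KO 1 and KO 2, and without it 10 rose as deposited. Ikzf2 (Helios) was at 2.62 and 4.997 FPKM in wild-type libraries against 16.1 and 15.4 FPKM in the KO-labelled libraries (limma adjusted p = 0.0129). Nfatc1 and Nfatc2, calcium-activated partners of FOXP3, rose 3.40-fold and 3.09-fold, and Prdm1 (Blimp-1), a factor of effector cells, 5.04-fold (limma adjusted p = 0.0127, 0.0129 and 0.0131). Lef1, a factor of naive T cells, was at 22.6 and 27.6 against 20.3 and 28.3 FPKM, with overlapping groups. Ikzf4 (Eos), a corepressor partner of FOXP3, was at 2.22 and 1.496 against 2.96 and 2.71 FPKM and did not pass (limma adjusted p = 0.146). Both were named after their values were seen.

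**Figure D4:**
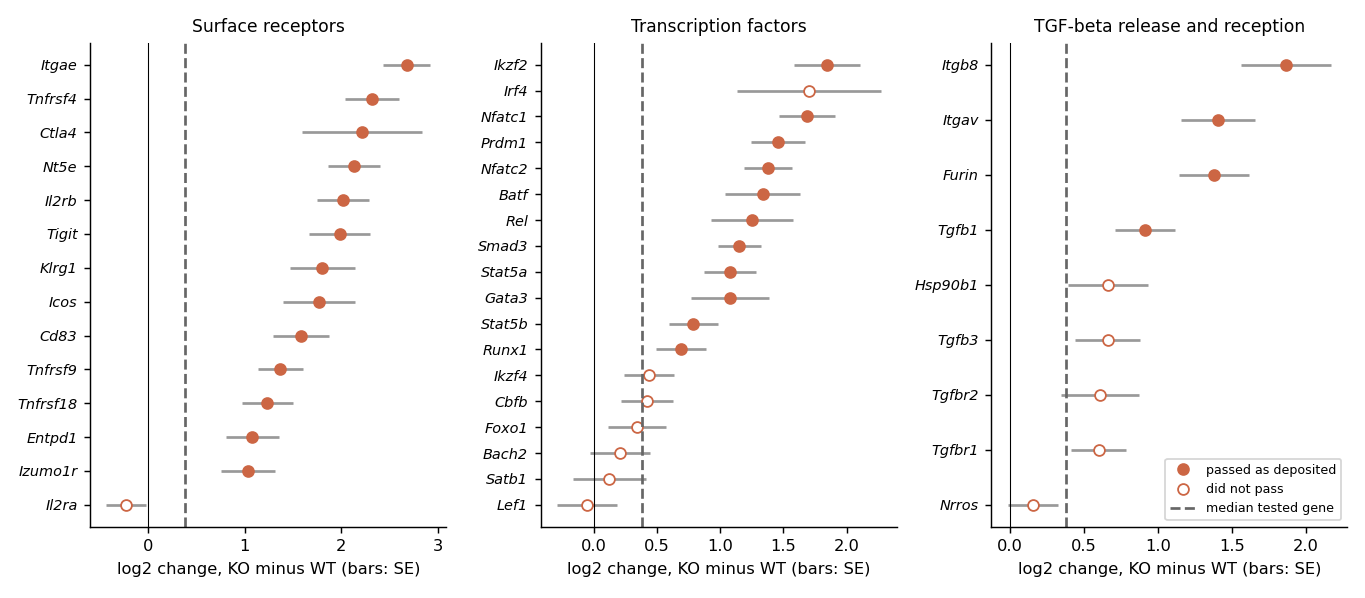
Log2 change of FPKM + 1 (x axis, KO minus WT, bars are limma SE) for the tested genes of 3 lists, with filled points for those past the threshold as deposited and a dashed line at the median tested gene (0.38). Among surface receptors 13 of 14 points are filled and Il2ra lies left of 0, among transcription factors 11 of 18 are filled, and in the TGF-beta list 4 of 9.

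The GARP pathway was read from 11 genes for storage, release and reception of latent TGF-beta, of which 9 were tested. Of these 4 rose as deposited, 3 under TMM scaling and 0 under quantile scaling, with a median log2 change of 0.66. Itgb8 reached the filter only through KO 1 and KO 2, and without it 3 rose as deposited. Itgb8, the integrin chain that frees TGF-beta from GARP, was at 0.0805 and 0.655 FPKM in wild-type libraries against 2.88 and 5.14 FPKM in the KO-labelled libraries (limma adjusted p = 0.014). Itgav, its partner chain, rose 3.59-fold, Furin, the protease that cuts the TGF-beta precursor, 3.08-fold, and Tgfb1 itself 1.95-fold (limma adjusted p = 0.0156, 0.0149 and 0.0228). The fold of Itgav was 2.61 without WT 1 and 5.75 without WT 2. Nrros, which encodes an alternative docking protein of myeloid cells, stood at 6.59 and 7.10 against 7.99 and 7.46 FPKM and did not pass (limma adjusted p = 0.517).

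The list of 14 genes of semaphorins, plexins, VEGF and their receptors covers families that include partners of neuropilin-1. Of these genes 3 were tested, and 1 rose as deposited and under TMM scaling, but 0 under quantile scaling. That is near the 25.6% of all tested genes called higher as deposited. Sema4d, a semaphorin of lymphocytes, rose 2.39-fold (limma adjusted p = 0.0146). Plxnd1, a plexin receptor, was at 0.292 and 0.633 against 1.41 and 1.14 FPKM (limma adjusted p = 0.0695). Sema4a, a ligand that binds neuropilin-1 on regulatory T cells, was at 10.8 and 12.4 against 12.6 and 14.1 FPKM (limma adjusted p = 0.465), so neither passed.

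Of 6 relatives of Capg in the gelsolin family, 4 were tested and 2 rose as deposited, with 1 under TMM scaling and 0 under quantile scaling. With 4 tested genes this count cannot be set apart from the 25.6% of all tested genes called higher. Flii rose 2.50-fold and Svil 1.99-fold (limma adjusted p = 0.0136 and 0.0245). Gsn and Scin were 1.56 and 1.90 times as high by mean FPKM and did not pass (limma adjusted p = 0.0562 and 0.0796).

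The chains that pair with EBI3 were close to 0 in all libraries. Il12a, whose product joins EBI3 in IL-35, was at 0.0871 and 0.127 FPKM in wild-type libraries, against 0 and 0.0972 FPKM in the KO-labelled libraries. Il27, whose product joins it in IL-27, was at 0.278 and 0.0898 FPKM in wild-type libraries and listed at 0 in KO 1 and KO 2. Of the 8 genes of this family 3 were tested, and 2 rose as deposited, 1 under TMM scaling and 0 under quantile scaling. Il12rb1, a receptor chain for IL-12 and IL-23, rose 6.14-fold, and Il27ra, a receptor chain for IL-27, 2.07-fold (limma adjusted p = 0.0127 and 0.0205). The fold of Il12rb1 was 9.29 without WT 1 and 4.58 without WT 2. Il6st, the shared chain gp130, was at 11.6 and 12.1 against 16.9 and 24.99 FPKM (limma adjusted p = 0.0549).

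Of 11 genes for reception of IL-10, its signalling and regulators of Il10, 7 rose as deposited, 6 under TMM scaling and 1 under quantile scaling, with a median log2 change of 1.17. Il10ra, the specific receptor chain, was at 2.34 and 3.32 FPKM in wild-type libraries against 13.9 and 10.8 FPKM in the KO-labelled libraries (limma adjusted p = 0.0111). Tyk2, a kinase on the receptor, rose 2.49-fold, and Ahr, a ligand-activated factor that can drive Il10, 3.58-fold (limma adjusted p = 0.0136 and 0.0148). Prdm1 belongs to this list as well. Like Ahr, it reached the filter only through KO 1 and KO 2, and without both 5 rose as deposited. The second receptor chain, Il10rb, was at 14.0 and 10.6 against 17.4 and 13.6 FPKM, with overlapping groups.

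Enkephalins are released from proenkephalin by prohormone convertases and carboxypeptidase E. Cpe, the carboxypeptidase, was at 0.148 and 0.143 FPKM in wild-type libraries against 3.78 and 1.07 FPKM in the KO-labelled libraries (limma adjusted p = 0.0342), and missed the threshold under TMM scaling (0.0701). Pcsk1, a convertase, was at 0.0805 and 0.253 FPKM in wild-type libraries against 3.63 and 0.742 FPKM in KO 1 and KO 2, too low to be tested. Both genes, like Penk, were higher in KO 1 than in KO 2, as were 58.0% of all tested genes. Of the 15 genes for opioid precursors, processing and receptors, 5 were tested and 3 rose as deposited (Furin, Dpp3 and Cpe), 1 under TMM scaling and 0 under quantile scaling. Cpe reached the filter only through KO 1 and KO 2, and without it 2 rose as deposited. Dpp3, a peptidase that degrades enkephalins, rose 2.003-fold (limma adjusted p = 0.0218). Scg5, a chaperone of a convertase, was at 2.77 and 2.64 against 1.11 and 1.78 FPKM (limma adjusted p = 0.0664). The opioid receptors were low throughout, with Oprd1 at 0.219 to 0.321 FPKM, Oprm1 at 0.0956 to 0.320 FPKM and Oprk1 at no more than 0.0116 FPKM. The other precursors were Pdyn, listed at 0 in all 4 libraries, Pomc at 0.323 to 1.22 FPKM and Pnoc at 0.359 to 0.944 FPKM.

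Several of the 8 genes are also made by other cells of the spleen, so markers of those cells are given beside them; their part in the results was not tested. The 8 B cell markers summed to 6.89 and 7.22 FPKM in wild-type libraries against 14.8 and 14.0 FPKM in the KO-labelled libraries, and of 3 tested 2 were called higher (Cd22 and Cd79b), of which Cd79b reached the filter only through KO 1 and KO 2. The highest were Cd79a (2.93 to 4.90 FPKM), Cd22 (1.69 to 4.93 FPKM) and Cd79b (0.842 to 3.76 FPKM), and Pax5 stayed between 0 and 0.417 FPKM. The 8 monocyte and macrophage markers, cells that express Capg and Il10, summed to 2.27 and 3.48 FPKM against 6.56 and 7.71 FPKM, led by Lyz2 (0.164 to 4.38 FPKM), Cd68 (0.952 to 2.25 FPKM) and Itgam (0.404 to 0.606 FPKM), with 1 of 2 tested called higher. The 4 plasma cell markers summed to 5.17 and 6.78 FPKM against 7.88 and 11.4 FPKM, mostly Jchain (3.96 to 9.49 FPKM), with Sdc1 at 0.477 to 1.01 FPKM and Mzb1 at 0.199 to 0.813 FPKM. The 7 dendritic cell markers summed to 36.5 and 29.1 FPKM against 27.4 and 27.7 FPKM, nearly all from Xcr1 (13.1 to 19.6 FPKM), Siglech (10.9 to 13.8 FPKM) and Ccr9 (1.61 to 2.61 FPKM), while Clec9a and Flt3 stayed under 0.324 FPKM.

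Platelets carry GARP, and endothelial cells carry neuropilin-1. Platelet markers summed to 1.16 and 1.68 FPKM in wild-type libraries against 1.58 and 1.33 FPKM in the KO-labelled libraries, with Pf4 at 0.674 to 1.40 FPKM, Itga2b at 0.279 to 0.482 FPKM, Gp9 at 0 to 0.171 FPKM and Ppbp listed at 0 throughout. Endothelial markers summed to 0.602 and 0.290 FPKM against 0.410 and 0.430 FPKM, led by Vwf (0.145 to 0.346 FPKM), Cdh5 (0.0477 to 0.1199 FPKM) and Emcn (0 to 0.128 FPKM). CD8 and NK markers summed to 15.7 and 15.5 FPKM against 13.7 and 14.7 FPKM, mostly Cd8b1 (10.3 to 11.3 FPKM) and Klrd1 (1.71 to 4.22 FPKM), followed by Klrb1c (0.408 to 1.08 FPKM), with Cd8a under 0.764 FPKM. Neutrophil markers summed to 4.29 and 44.8 FPKM against 21.5 and 52.2 FPKM, led by S100a9 (2.12 to 21.3 FPKM), S100a8 (1.96 to 23.6 FPKM) and Ngp (0.146 to 4.73 FPKM), so WT 1 stood low. Erythroid markers differed most between the groups of these lists, at 4.52 and 65.9 FPKM against 271 and 217 FPKM, with all 5 tested called higher, some of which, including Alas2 and Slc4a1, reached the filter only through KO 1 and KO 2; Hba-a2 ran from 2.07 to 140 FPKM, Hbb-b2 from 2.46 to 123 FPKM and Slc4a1 from 0 to 3.24 FPKM. The globin copies are near-identical, so values of single copies are uncertain. WT 1, the library with the lowest erythroid and neutrophil sums, also had the lowest Foxp3, Lrrc32, Nrp1, Capg, Il10 and Penk. Of all tested genes, 68.2% were likewise lower in WT 1 than in WT 2, and no link between these was tested.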

How the data were processed

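Libraries from 200 ng of total RNA were made with the NEBNext Ultra kit, per the labels' protocols, and Bowtie 0.12.2 and the build mm8 are named in the submitters' processing notes. The deposited tables, 1 for each library, give FPKM by gene symbol, per the file headers; the program, annotation and filters behind them are unstated in the sources used here. Each table held 23700 rows, of which 8 were the genes described, on 1 row each.

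Genes reaching 1 FPKM in 2 or more of the 4 libraries were tested with limma 3.58.1 (R 4.3.3) on log2(FPKM + 1) with an intensity trend, two-sided, adjusted by Benjamini and Hochberg over 11074 genes at 0.05. Log2 changes are on that scale and understate changes of low genes; folds are ratios of mean FPKM. FPKM is relative to the library total, so a few abundant genes can shift all others. With 2 libraries a group, the smallest two-sided permutation p is 0.333. TMM factors (own implementation, trimming 30% of log ratios and 5% of mean levels on either side) were 0.799 for WT 1, 0.914 for WT 2, 1.20 for KO 1 and 1.14 for KO 2. The procedure was tested on simulated data.

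Depth came from steps between 0.005 and 0.15 FPKM in single-transcript genes, assuming fragments of 200 nt; 45.6% to 57.9% of such values lay within 0.05 of a whole fragment. Fragments per gene are approximate, from its longest GENCODE M21 transcript, and no test for counts was run. Of 159 list symbols 153 matched as given, 5 through a synonym and 1 did not match; 2 stood on more than 1 row and were read from the row with the highest mean.

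The genes and lists were chosen with earlier results of these data known. Named were the 8 genes, Ripk1, up to 4 tested genes of each pathway list by unadjusted p, up to 3 genes of each list of other cells by mean, and the 5 nearest profiles of Foxp3 and Penk. Named outside this rule, after their values were seen, were Cd4, Cd3e, Cd5, Il2ra, Entpd1, Lef1, Ikzf4, Nrros, Il12a, Il27, Il10rb, Pcsk1, Oprd1, Oprm1, Oprk1, Pdyn, Pomc, Pnoc, Pax5, Clec9a, Flt3, Cd8a, Ppbp and Alas2. Alternatives were each library left out, a replicate block, pseudocounts of 0.1 and 5, no filter or 5 FPKM, both scalings and no trend. Figures and summaries used Python 3.11.15.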

Additional observations from a re-analysis of the deposited data

How the results depend on the processing

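The log2 changes of all 8 genes were positive under each alternative that tested them; the stricter filter left out Lrrc32, Gpr83 and Ebi3, and leaving out KO 1 or KO 2 left out Lrrc32. Of the 7 listed genes, 6 were called as deposited, 3 under quantile scaling and 0 with no filter, and 0 to 5 when a library was left out, with 0 without WT 1. Genes called higher in all, 2832 as deposited, numbered 9 to 2189 when a library was left out, 3 with no filter (4604 at an unadjusted p under 0.05), 501 under TMM scaling and 179 under quantile scaling. Genes called lower, 111 as deposited, numbered 0 to 123 when a library was left out, 0 with no filter (541 at an unadjusted p under 0.05), 415 under TMM scaling and 77 under quantile scaling. Of all calls 96.2% were higher as deposited, 54.7% under TMM scaling and 69.9% under quantile scaling. A replicate block gave 3909 higher and 230 lower calls, with all 7 listed genes called (Gpr83 adjusted p = 0.0321, limma). The labels do not say that equal numbers pair samples; the deviations of WT 1 and KO 1 from their group means had a correlation of 0.11 across genes. Each lone library is assumed to vary like the other group. Ratios to Foxp3 without each library, added after seeing the data, changed sign on the log2 scale for Lrrc32 (-0.23 to 0.41), Ebi3 (-0.83 to 0.27) and Il10 (-1.47 to 0.29), and kept it for Gpr83, Nrp1, Capg and Penk (0.83 to 2.17 for Penk). Folds of mean FPKM without each library were added likewise. The low depth of Ebi3 and of Il10 in WT 1, about 22 and 12 fragments for Ebi3 in wild-type libraries against 21 for Il10, limits both.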
